A study of Mus musculus with 27 samples.

Results

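Hepatocyte organoids (HepOrgs) that were moved from the expansion medium HM-Wnt to the minimal medium MM for 1 week were compared with HepOrgs that stayed in HM-Wnt for the same week. The members are the 6 bulk RNA-seq libraries whose titles name passage 2 HepOrgs, 1 of these media and 1 week (7 days), 3 libraries per medium, of the 27 libraries of the study that were mapped to a condition. The study builds periportal liver assembloids from mouse HepOrgs, cholangiocytes and portal mesenchyme, and the assembloids are cultured in MM. HepOrgs were grown in Matrigel from primary hepatocytes of wild-type C57BL/6 mice, first in HM-Wnt, and at passage 2 were either switched to MM or kept in HM-Wnt. Another 6 HepOrg libraries, 3 per medium at 2 weeks (14 days), entered the same fit and served to follow the genes over time.

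Both media hold the same base with B27, 1.25 mM N-acetylcysteine, 30% Wnt conditioned medium and 10 µM of the ROCK inhibitor Y-27632. HM-Wnt alone also holds 50 ng/ml EGF, 25 ng/ml HGF, 100 ng/ml FGF10, 50 ng/ml FGF7, 10 nM gastrin, 15% RSPO1 conditioned medium, 3 µM CHIR99021 (a GSK3 inhibitor), 1 µM A83-01 (an inhibitor of TGF-β type I receptors) and 10 mM nicotinamide. The comparison therefore asks what happens to hepatocyte gene expression when all of these are withdrawn together, and the factors cannot be told apart. The labels give each library a replicate number but do not say whether the numbers stand for separate animals or cultures, so the p-values measure the spread between these libraries, which may be technical. In bulk libraries, fewer cells of a type and less RNA per cell cannot be told apart.

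In the liver, EGF, HGF and FGF signal through receptor tyrosine kinases and ERK to drive hepatocyte growth after injury. R-spondins and GSK3 inhibition raise Wnt/β-catenin signalling, which in the lobule marks hepatocytes around the central vein, whereas hepatocytes around the portal vein carry out much of gluconeogenesis and urea synthesis. Hepatocytes in expansion culture tend to divide and to lose metabolic functions such as sugar handling, lipogenesis and bile acid synthesis, which are hallmarks of the resting adult cell.

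The 6 libraries held 30289364 to 58815016 counts on genes. Reads of the 10 hepatocyte marker genes summed to 67083, 57782 and 21167 CPM (counts per 1e+06 counts, TMM-normalised) in MM replicates 1, 2 and 3 and to 55795, 49069 and 44377 CPM in HM-Wnt replicates 1, 2 and 3, so both groups carried hepatocyte RNA and MM replicate 3 had the lowest sum. The 12 cholangiocyte markers summed to 8779, 8926 and 3488 CPM in MM and 5379, 14043 and 9425 CPM in HM-Wnt, and none of them passed the test by edgeR (1 at an unadjusted p under 0.05, 1 past the threshold by DESeq2). With the replicate number as a block Sox9, a transcription factor of cholangiocytes, was higher in MM (log2 fold change 0.82, edgeR adjusted p = 0.0633 without and 0.0292 with the block), as were 5.62% of all genes. The 9 mesenchyme markers summed to 222, 109.5 and 112 CPM in MM against 40.2, 43.5 and 96.2 CPM in HM-Wnt, higher in every MM library. Of them, the fibrillar collagen Col1a1 was at 57.00, 23.3 and 36.3 CPM in MM and 3.81, 0.194 and 16.1 CPM in HM-Wnt, and none of the 9 passed the test by edgeR (0 at an unadjusted p under 0.05) or by DESeq2. Immune markers summed to 66.4, 20.7 and 46.3 CPM in MM and 17.9, 17.4 and 19.00 CPM in HM-Wnt, with most of the excess in MM replicate 1 from the macrophage lysozyme Lyz2 (38.9, 5.25 and 4.10 CPM in MM). Of the 10 immune markers 3 were tested, all with positive log2 fold changes (0.56 to 5.34), and none passed the test by edgeR. Of the 8 endothelial markers 2 were tested, at −0.99 and 1.90, and neither passed. Among the markers too low to be tested, the immune genes Clec4f and Cd3e and the endothelial gene Kdr were at 0 in all 6 libraries. Endothelial sums stayed between 0.829 and 2.21 CPM. The part that these mesenchyme and immune genes play in the results was not tested.

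After 1 week, 387 of 12989 genes tested were past the threshold (edgeR quasi-likelihood test, adjusted p under 0.05), which is 2.98% of genes. Of these, 229 (1.76%) were higher and 158 (1.22%) were lower in MM. Over all genes tested the log2 fold changes had a median of −0.004. The absolute values of the 387 had a median of 1.24, and 253 of them exceeded 1. In 386 of the 387 the 3 MM and the 3 HM-Wnt libraries did not overlap. For a called gene, groups that lie apart are therefore no further support. With the replicate number as a block, 1232 genes (9.48%) were past the threshold, 730 higher (5.62%) and 502 lower (3.86%), and all 387 were among them. In what follows 3 CPM values are those of replicates 1, 2 and 3 in that order. A pair of values after a gene is its log2 fold change and its edgeR adjusted p, and a further value is the adjusted p with the block. The split depended on the scale, since 263 genes were higher and 79 lower on log2(TPM + 1) (76.9% higher against 59.2%), where all genes had a median of 0.08. On log2(TPM + 0.1) they were 230 and 63 (78.5% higher), where all genes had a median of 0.10. The count was sensitive to single libraries: it was 42 without MM replicate 1, 70 without MM replicate 2, 600 without MM replicate 3, 113 without HM-Wnt replicate 3 and 147 without HM-Wnt replicate 2.

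**Figure D1:**
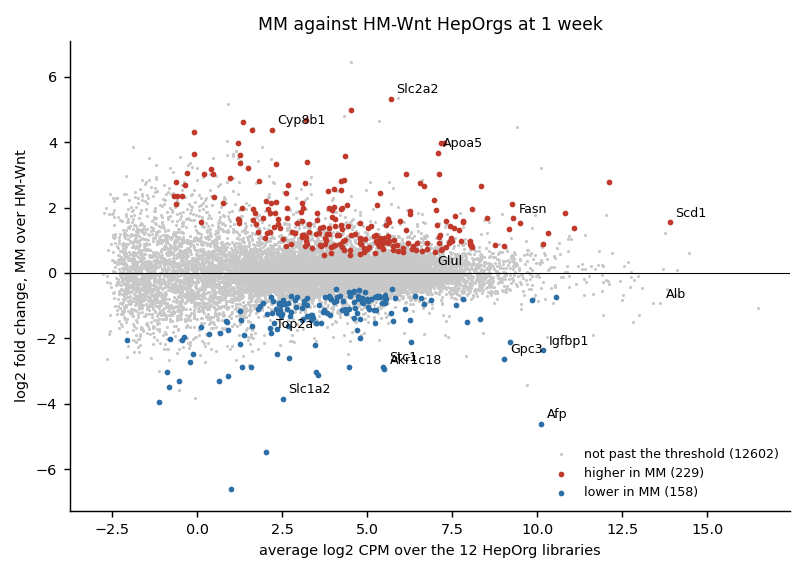
Log2 fold change of MM over HM-Wnt at 1 week against average log2 CPM over the 12 HepOrg libraries, 1 point per gene tested, with the 229 genes past the threshold and higher in MM in red and the 158 lower in blue. The coloured points span the range of levels, from genes under 1 CPM to Scd1, and of the genes labelled in the plot Slc2a2 lies highest and Afp lowest.

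Among well-expressed genes, those that rose most in MM encode hepatocyte transporters, secreted proteins and metabolic enzymes. Slc2a2 (ENSMUSG00000027690, GRCm39 chr3:28752051-28785508) encodes GLUT2, the glucose transporter of the hepatocyte membrane. It was at 121, 81.1 and 16.7 CPM in MM replicates 1, 2 and 3 and at 2.08, 0.813 and 2.32 CPM in HM-Wnt replicates 1, 2 and 3 (log2 fold change 5.32, standard error 0.73, edgeR adjusted p = 0.00732). Its lowest MM library lay above its highest HM-Wnt library by a wide margin, although MM replicate 3 was well below the other MM libraries. Apoa5 (ENSMUSG00000032079, GRCm39 chr9:46179931-46183217), an apolipoprotein that lowers plasma triglycerides, was at 245, 117 and 111 CPM in MM and 12.5, 13.2 and 11.2 CPM in HM-Wnt (log2 fold change 3.68, standard error 0.51, edgeR adjusted p = 0.00744). The HM-Wnt values lay close together, and each MM value was far above them. Csad, an enzyme of taurine synthesis, was at 367, 356 and 122 CPM in MM and 40.9, 31.02 and 32.8 CPM in HM-Wnt (log2 fold change 3.01, standard error 0.43, edgeR adjusted p = 0.00817), with MM replicate 3 the lowest of its group and still above every HM-Wnt library.

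Slc2a2, Apoa5 and Cyp8b1 (a bile acid synthesis gene described below), which rose, kept their calls without any 1 library. Afp had the largest fall of the well-expressed genes in the ranking described next. The sequences before the RefSeq start of these genes are printed. Each is 250 bases, 5′ to 3′ on the strand of the gene, from a RefSeq table of GRCm38.p6, and was found once in GRCm39 by exact match. Capitals mark matches, on either strand, to CCAAT, to the E-box CACGTG, to GTTAAT (part of the HNF1 site) and to TATAAA. No matches overlap each other.
Slc2a2: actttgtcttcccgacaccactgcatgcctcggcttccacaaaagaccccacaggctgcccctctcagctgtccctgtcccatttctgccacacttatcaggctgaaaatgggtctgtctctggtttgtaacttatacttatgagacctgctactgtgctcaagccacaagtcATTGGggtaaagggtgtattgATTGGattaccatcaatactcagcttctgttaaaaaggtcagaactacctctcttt
Apoa5: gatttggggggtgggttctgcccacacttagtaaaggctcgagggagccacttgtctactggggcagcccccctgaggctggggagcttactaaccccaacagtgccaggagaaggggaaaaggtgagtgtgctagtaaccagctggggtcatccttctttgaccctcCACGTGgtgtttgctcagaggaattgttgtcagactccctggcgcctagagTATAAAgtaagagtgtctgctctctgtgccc
Cyp8b1: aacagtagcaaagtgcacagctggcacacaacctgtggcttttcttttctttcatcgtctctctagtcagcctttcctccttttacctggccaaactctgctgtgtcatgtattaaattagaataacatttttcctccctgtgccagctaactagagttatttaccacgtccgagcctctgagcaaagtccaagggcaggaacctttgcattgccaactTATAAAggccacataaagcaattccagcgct
Afp: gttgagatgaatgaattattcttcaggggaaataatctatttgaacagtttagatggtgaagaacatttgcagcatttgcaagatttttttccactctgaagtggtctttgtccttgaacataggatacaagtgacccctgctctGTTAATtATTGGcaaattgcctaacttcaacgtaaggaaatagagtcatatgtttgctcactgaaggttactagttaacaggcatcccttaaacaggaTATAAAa

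The Slc2a2 window (chr3:28751802-28752051 on the + strand) holds CCAAT on the other strand at 77 and 56 bases before the start. In the Apoa5 window (chr9:46179656-46179905 on the + strand) CACGTG begins 82 and TATAAA 31 bases before the start. The Cyp8b1 window (chr9:121745372-121745621 on the − strand) has TATAAA at 31 bases. For Afp (chr5:90638323-90638572 on the + strand), GTTAAT begins at 105, CCAAT on the other strand at 98 and TATAAA at 7 bases before the start that RefSeq gives. Of 32851 windows of the same length, 33.8% hold CCAAT, 12.4% TATAAA, 6.43% GTTAAT and 6.02% CACGTG. The matches describe the letters, and binding was not measured.

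The other ranked genes that rose were Ces1g, Pigr, Serpina6, Ugt3a2, Pbld2, Rarres2, Dpys, Pltp, Cd36, Cyp2s1 and Rnf125, with log2 fold changes from 2.66 to 4.69. Pigr, the receptor that carries polymeric IgA across epithelia, was at 156, 167 and 20.8 CPM in MM and 6.87, 11.7 and 3.25 CPM in HM-Wnt (log2 fold change 3.98, standard error 0.94, edgeR adjusted p = 0.0461). Serpina6, the corticosteroid-binding globulin of plasma, was at 322, 309 and 52.03 CPM in MM and 25.3, 9.06 and 9.40 CPM in HM-Wnt (log2 fold change 3.96, standard error 0.94, edgeR adjusted p = 0.0451). In both genes MM replicate 3 was nearer to HM-Wnt than to the other MM libraries. Cd36, a fatty acid transporter, was at 76.5, 95.3 and 26.4 CPM in MM and 9.09, 12.01 and 8.14 CPM in HM-Wnt (log2 fold change 2.76, standard error 0.45, edgeR adjusted p = 0.0125). Rarres2 (chemerin, a secreted adipokine) had 163, 124 and 37.04 CPM in MM and 15.99, 18.1 and 5.68 CPM in HM-Wnt, and Dpys, of pyrimidine breakdown, 33.7, 24.9 and 9.26 and 3.94, 3.14 and 2.20 CPM. Cyp2s1, a P450 enzyme, did not have MM replicate 3 as its lowest MM library, with 20.9, 13.2 and 21.6 CPM in MM against 4.16, 2.05 and 1.96 CPM in HM-Wnt. Ces1g, Ugt3a2 and Cyp2s1 belong to multigene families, so their counts may include reads of close relatives. The calls of Slc2a2, Apoa5 and Csad held without any 1 library, and Pigr lost its call on log2(TPM + 1). Of the 15, 11 were lost without MM replicate 1 (edgeR adjusted p 0.0529 to 0.140) or HM-Wnt replicate 3 (0.0544 to 0.127). Without MM replicate 2, 8 were lost (0.0637 to 0.127), 8 without HM-Wnt replicate 2 (0.0545 to 0.143) and 3 without HM-Wnt replicate 1 (0.0588 to 0.0849). None was lost without MM replicate 3.

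Among well-expressed genes, those that fell most in MM include 2 foetal liver genes and several secreted or hormone-related genes. Afp (ENSMUSG00000054932, GRCm39 chr5:90638584-90656766), the foetal plasma protein alpha-fetoprotein, was at 82.7, 69.4 and 106 CPM in MM replicates 1, 2 and 3 and at 2389, 423 and 3497 CPM in HM-Wnt (log2 fold change −4.61, standard error 1.05, edgeR adjusted p = 0.0407). HM-Wnt replicate 2 was well below the other HM-Wnt libraries but above every MM library. Gpc3, a cell-surface glypican of foetal liver, was at 102, 99.5 and 246 CPM in MM and 1225, 475 and 1051 CPM in HM-Wnt (log2 fold change −2.62, standard error 0.57, edgeR adjusted p = 0.0369) and also had HM-Wnt replicate 2 as the lowest of its group. Among MM libraries replicate 3 was the highest for both genes. Of the other tested members of the 6-gene foetal list neither Dlk1 nor Cd24a passed the test, Igf2 was listed at 0 in all libraries, and H19 was not analysed here. Igfbp1 (ENSMUSG00000020429, GRCm39 chr11:7147651-7152546), a liver-secreted binding protein of insulin-like growth factors, fell from 1536, 1039 and 2549.5 CPM in HM-Wnt to 336, 283 and 382 CPM in MM (log2 fold change −2.36, standard error 0.31, edgeR adjusted p = 0.00610).

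Akr1c18, a hydroxysteroid dehydrogenase that inactivates progesterone, was at 108, 108 and 109.3 CPM in HM-Wnt and 12.9, 19.6 and 9.63 CPM in MM (log2 fold change −2.95, standard error 0.33, edgeR adjusted p = 0.00389). Stc1, the secreted glycoprotein stanniocalcin, was at 85.5, 89.6 and 93.8 CPM in HM-Wnt and 6.10, 14.3 and 16.5 CPM in MM (log2 fold change −2.86, standard error 0.35, edgeR adjusted p = 0.00556). Both genes had nearly equal values in the 3 HM-Wnt libraries, and every MM value was far below them. Cdh17, liver-intestine cadherin, was at 129, 116 and 161 CPM in MM and 290.2, 474 and 384 CPM in HM-Wnt (log2 fold change −1.497, standard error 0.27, edgeR adjusted p = 0.0203). Pcsk1 (a prohormone convertase), Pde6h, Tspan2, Kif5c, H1f0 (a linker histone), Copz2, Fnta and Slc24a3 completed the ranked genes that fell together with Cyp2b10, with log2 fold changes from −3.11 to −1.52. Copz2 and Fnta had HM-Wnt replicate 1 (12.9 and 12.3 CPM) close to their highest MM library (11.7 and 10.1 CPM), so their groups were barely apart. Akr1c18 and Cyp2b10 have close paralogues. Akr1c18, Stc1 and Igfbp1 kept their calls without any 1 library. The other 12 were lost without MM replicate 1 (edgeR adjusted p 0.0872 to 0.169), MM replicate 2 (0.0799 to 0.146) or HM-Wnt replicate 3 (0.0549 to 0.108). Of the 15, 9 were lost without HM-Wnt replicate 2 (0.0579 to 0.119), 5 without HM-Wnt replicate 1 (0.0621 to 0.0664) and 3 without MM replicate 3 (0.0532 to 0.0654). Afp, Copz2 and Fnta lost their calls on log2(TPM + 1).

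**Figure D2:**
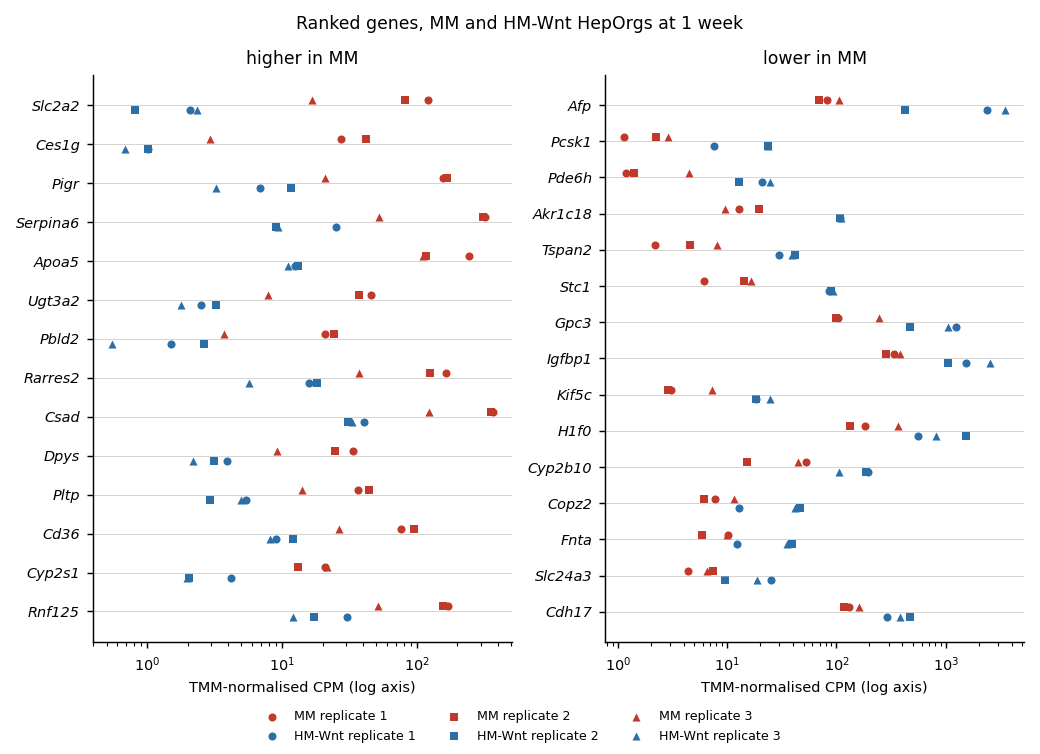
TMM-normalised CPM (log axis) of 14 of the 15 genes with the highest and the 15 with the lowest log2 fold change among well-expressed genes past the threshold, with MM libraries in red, HM-Wnt libraries in blue and the marker shape giving the replicate number. The genes were chosen so that the groups do not overlap, and on the left MM replicate 3 (red triangle) is often the lowest red point, as for Slc2a2 at 16.7 CPM.

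Of the 23 genes of the cholesterol and fatty acid synthesis list, 5 rose (Fasn, Acaca, Acly, Scd1 and Me1) and none fell, against a background of 1.76% higher and 1.22% lower. The list's median log2 fold change was 0.23 against −0.004 for all genes. Fasn (ENSMUSG00000025153, GRCm39 chr11:120696672-120715995), fatty acid synthase, was at 1087, 1023 and 907 CPM in MM and 360.2, 187 and 397 CPM in HM-Wnt (log2 fold change 1.67, standard error 0.27, edgeR adjusted p = 0.0120). Acaca, which makes malonyl-CoA, had 181, 179 and 202 CPM in MM and 95.5, 73.1 and 91.3 CPM in HM-Wnt (log2 fold change 1.11, standard error 0.17, edgeR adjusted p = 0.00987). Me1, malic enzyme that supplies NADPH, had 360.2, 332 and 291 CPM in MM and 128, 81.8 and 124 CPM in HM-Wnt (log2 fold change 1.56, standard error 0.20, edgeR adjusted p = 0.00610). In each of these 3 genes the MM libraries were close to each other and above all HM-Wnt libraries. Acly, which makes cytosolic acetyl-CoA, had 1035, 799.7 and 556 CPM against 384, 176 and 374 CPM (log2 fold change 1.36, standard error 0.30, edgeR adjusted p = 0.0371), and Scd1, the desaturase, had 21592, 38853 and 12584 against 8651, 8269 and 7957 CPM (log2 fold change 1.55, standard error 0.35, edgeR adjusted p = 0.0408). Sqle, squalene epoxidase of cholesterol synthesis, was below HM-Wnt in every MM library (503, 594 and 511 against 993, 1192 and 918 CPM, log2 fold change −0.95). It passed only with the replicate block (adjusted p = 0.0627 without and 0.0133 with it), against 3.86% of all genes lower. The elongase Elovl6 was higher only with the block (0.74, 0.0710 and 0.0448), against 5.62% of all genes.

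Of the genes that lead from sugar to this pathway, Slc2a2 (described above) and Pklr rose. Pklr, liver pyruvate kinase, was at 325, 213 and 253 CPM in MM and 108, 62.3 and 132 CPM in HM-Wnt (log2 fold change 1.38, standard error 0.25, edgeR adjusted p = 0.0203). In the 12 tested genes of the glycolysis and hypoxia list, Slc2a2 and Pklr were the 2 that rose, against 1.76% of all genes, and none fell. The list median was 0.18. Chosen after the values were seen, Khk, Tkfc, Mlxipl and Acacb were looked at beside them. Khk, ketohexokinase that commits fructose to breakdown, was at 1383, 925 and 944 CPM in MM and 382, 379.8 and 367 CPM in HM-Wnt (log2 fold change 1.53, standard error 0.25, edgeR adjusted p = 0.0125). Tkfc, which phosphorylates the glyceraldehyde that fructose breakdown releases, was at 84.2, 79.2 and 35.2 CPM in MM and 25.3, 8.75 and 12.4 CPM in HM-Wnt (log2 fold change 2.09, standard error 0.42, edgeR adjusted p = 0.0290). Mlxipl, the sugar-responsive transcription factor ChREBP, was at 59.4, 52.95 and 57.7 CPM in MM and 29.6, 31.4 and 29.4 CPM in HM-Wnt (log2 fold change 0.91, standard error 0.14, edgeR adjusted p = 0.0102), with tight values in both groups. Acacb, the second acetyl-CoA carboxylase, had 24.9, 52.1 and 18.8 CPM in MM and 6.30, 4.11 and 6.02 CPM in HM-Wnt (log2 fold change 2.53, standard error 0.41, edgeR adjusted p = 0.0130). Of these 11 genes of sugar uptake, fructose breakdown and fatty acid synthesis, Slc2a2, Acaca and Me1 kept their calls without any 1 library. Of the others 7 were lost without MM replicate 1 (edgeR adjusted p 0.0542 to 0.149) and 4 without HM-Wnt replicate 2 (0.0504 to 0.112). Without MM replicate 2, 3 were lost (0.0886 to 0.124), 3 without HM-Wnt replicate 3 (0.0745 to 0.106) and Scd1 without HM-Wnt replicate 1 (0.0689).

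Of the 17 tested genes of fatty acid oxidation and PPARα targets 16 had positive log2 fold changes. Of these 2 rose, Vnn1 among them, against 1.76% of all genes, and none fell. The list median was 0.70, and with the replicate block 7 rose, against 5.62%. Vnn1, a pantetheinase and target of PPARα, was at 266, 285 and 233 CPM in MM and 143, 163 and 93.5 CPM in HM-Wnt (log2 fold change 0.97, standard error 0.21, edgeR adjusted p = 0.0340). Every MM library of Vnn1 lay above every HM-Wnt library, and in 9 of the 17 genes the 3 MM libraries all lay above the 3 HM-Wnt libraries, against 12.8% of all genes tested. Cpt1a, the gate of mitochondrial fatty acid import, had 125, 132 and 63.5 and 75.5, 48.8 and 57.2 CPM (log2 fold change 0.82, edgeR adjusted p = 0.155), and Acadm, a medium-chain dehydrogenase, passed only with the block (0.59, adjusted p = 0.111 without and 0.0357 with it). The call of Vnn1 was lost without MM replicate 1 (edgeR adjusted p = 0.107), MM replicate 2 (0.0999) or HM-Wnt replicate 3 (0.0723). On log2(TPM + 1), 8 genes of the list were past the threshold, against 342 of all 9439 genes tested on that scale.

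All 11 tested genes of bile acid synthesis had positive log2 fold changes, and 2 of them rose, against 1.76% of all genes. Cyp8b1 (ENSMUSG00000050445, GRCm39 chr9:121743422-121745371), the sterol 12α-hydroxylase that directs synthesis to cholic acid, was at 14.9, 16.7 and 5.75 CPM in MM and 0.958, 0.349 and 0.344 CPM in HM-Wnt (log2 fold change 4.38, standard error 0.65, edgeR adjusted p = 0.00987). Nr0b2 (SHP), the nuclear receptor that bile acids induce to repress their own synthesis, was at 8.81, 7.81 and 4.95 CPM in MM and 0.411, 2.01 and 1.43 CPM in HM-Wnt (log2 fold change 2.45, standard error 0.46, edgeR adjusted p = 0.0228). Neither gene overlapped between the groups, and both were low in every HM-Wnt library. The list median was 1.14, and with the block 6 rose, against 5.62% of all genes, among them Baat, which conjugates bile acids (1.41, adjusted p = 0.137 without and 0.00506 with it), and Nr1h4 (FXR), the bile acid receptor (1.14, 0.152 and 0.00987). Cyp7a1, the rate-limiting enzyme of bile acid synthesis, was at 17.5, 29.6 and 6.23 CPM in MM and 9.50, 3.29 and 1.15 CPM in HM-Wnt, which overlap (log2 fold change 1.92, edgeR adjusted p = 0.152). Cyp8b1 kept its call without any 1 library, and Nr0b2 lost it without MM replicate 1 (edgeR adjusted p = 0.0872), MM replicate 2 (0.0732) or HM-Wnt replicate 3 (0.0635).

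Of 14 tested bile acid and lipid transporters, Abcc3 rose, against 1.76% of all genes, and none fell. Abcc3 (MRP3), which exports bile acid conjugates to blood, was at 248, 238 and 266 CPM in MM and 86.9, 52.01 and 85.8 CPM in HM-Wnt (log2 fold change 1.74, standard error 0.25, edgeR adjusted p = 0.00817). Its groups were far apart and the call held without any 1 library. With the block Slc10a1 (NTCP, bile acid uptake, 1.94, adjusted p = 0.131 without and 0.00783 with it) and Abcb11 (BSEP, canalicular export, 1.54, 0.216 and 0.0139) also passed, against 5.62% of all genes higher. The canalicular transporters Abcc2 and Abcb4 did not, at log2 fold changes of 0.07 and 0.27 (edgeR adjusted p = 0.858 and 0.449), and the sign of Abcc2 turned without MM replicate 3 (−0.02) or HM-Wnt replicate 3 (−0.030). Among 21 canalicular membrane and junction genes 2 rose, against the same 1.76% (3 with the block, against 5.62%), among them Cldn3 (0.90, adjusted p = 0.0291), a tight-junction claudin, while E-cadherin Cdh1 was at 0.05 (0.924), with its sign turned without MM replicate 3 (−0.16) or HM-Wnt replicate 2 (−0.15). Cldn3 did not pass on log2(TPM + 1), and it lost its call without any of MM replicates 1 and 2 and HM-Wnt replicates 1 and 2, at edgeR adjusted p up to 0.0918.

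Nuclear receptors of xenobiotic response rose while a CAR target fell. Nr1i3 (CAR) was at 8.87, 10.7 and 8.85 CPM in MM and 3.31, 2.21 and 2.30 CPM in HM-Wnt (log2 fold change 1.84, standard error 0.35, edgeR adjusted p = 0.0240). Nr1i2 (PXR) was at 18.6, 20.2 and 12.5 CPM in MM and 9.01, 7.28 and 8.02 CPM in HM-Wnt (log2 fold change 1.07, standard error 0.22, edgeR adjusted p = 0.0307). They were the 2 of 18 hepatocyte transcription factors past the threshold, against 1.76% of all genes higher, none fell, and the list median was 0.35. With the block FXR and Ppara (0.95, adjusted p = 0.00982 with it) passed too, against 5.62% of all genes. Hnf4a, the central hepatocyte factor, was at 170.2, 158 and 117 CPM in MM and 185, 130.4 and 141 CPM in HM-Wnt (log2 fold change −0.04, edgeR adjusted p = 0.938), and its sign turned on log2(TPM + 1) (0.058) and without MM replicate 3 (0.11) or HM-Wnt replicate 1 (0.14). Cyp2b10, the classic target of CAR, was at 53.2, 15.1 and 44.9 CPM in MM and 195, 185 and 106 CPM in HM-Wnt (log2 fold change −2.10, standard error 0.46, edgeR adjusted p = 0.0360). It was the only 1 of 13 tested xenobiotic P450 and related genes past the threshold, against 1.22% of all genes lower. With the block Cyp3a25 fell too (−1.07, adjusted p = 0.287 without and 0.0455 with it), against 3.86% of all genes lower, and Cyp1a2 rose (0.98, 0.529 and 0.0183), against 5.62% higher. Cyp3a11, which PXR regulates and which has close paralogues, had 1040.0, 1626 and 426 CPM in MM and 1119, 3616 and 894 CPM in HM-Wnt (log2 fold change −0.86, edgeR adjusted p = 0.416; 0.031 without HM-Wnt replicate 2). The calls of Nr1i3 and Nr1i2 were lost without MM replicate 1, MM replicate 2, HM-Wnt replicate 2 or HM-Wnt replicate 3, at edgeR adjusted p up to 0.110.

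Of 23 tested periportal genes 3 rose, among them Pigr and the apolipoprotein Apoa4, against 1.76% of all genes, and none fell, with a list median of 0.59. With the replicate block 4 rose, against 5.62% of all genes, and 3 fell, against 3.86%. Apoa4 had 3719, 3304 and 3085 CPM in MM and 1299, 1304 and 1311 CPM in HM-Wnt (log2 fold change 1.37, standard error 0.19, edgeR adjusted p = 0.00662), with almost equal values within each group. Fbp1 of gluconeogenesis was at 1213, 806 and 881 CPM in MM and 437, 545 and 482 CPM in HM-Wnt, apart but past the threshold only with the block (0.99, adjusted p = 0.0711 without and 0.0310 with it). Arg1, arginase of the urea cycle, had 70.8, 166 and 2.48 CPM in MM, a wide spread (20.2, 16.96 and 2.61 CPM in HM-Wnt; log2 fold change 2.59, edgeR adjusted p = 0.265). Gls2, a glutaminase that feeds ammonia to the urea cycle, had 0.350, 0.691 and 0.813 CPM in MM and 0.822, 0.658 and 1.52 CPM in HM-Wnt (−0.66, 0.384). Cps1, the first enzyme of the urea cycle, had a negative value, with 6.10, 13.3 and 3.09 CPM in MM and 25.3, 51.1 and 10.8 CPM in HM-Wnt (−1.95, adjusted p = 0.150 without and 0.00395 with the block). Alb was also lower with the block, with 13283, 9429.6 and 9221 CPM in MM and 24897, 14379 and 21502 CPM in HM-Wnt (−0.93, 0.154 and 0.0359).

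Of 18 tested pericentral genes Slc1a2 was the only 1 past the threshold, against 1.22% of all genes lower. With the block 2 rose, against 5.62%, and Slc1a2 fell, against 3.86%, and the list median was 0.15. Slc1a2 (ENSMUSG00000005089, GRCm39 chr2:102488574-102621129), a glutamate transporter of pericentral hepatocytes, was at 0.977, 1.31 and 0.850 CPM in MM and 23.9, 10.3 and 12.6 CPM in HM-Wnt (log2 fold change −3.85, standard error 0.47, edgeR adjusted p = 0.00556), and it kept its call without any 1 library. Glul, glutamine synthetase of the same cells, was at 113, 88.7 and 184 CPM in MM and 128, 95.9 and 142 CPM in HM-Wnt (log2 fold change 0.08, edgeR adjusted p = 0.918). Its groups overlapped, with a turned sign without MM replicate 3 (−0.27) or HM-Wnt replicate 2 (−0.07). Cyp2e1, a pericentral P450, was at 1187, 1022 and 228 CPM in MM and 328, 372 and 88.9 CPM in HM-Wnt (1.63, 0.268), so MM replicate 3 lay below the higher HM-Wnt libraries. Cyp1a1 had a log2 fold change of 0.14 (0.931), which turned negative without MM replicate 2 (−0.14), HM-Wnt replicate 2 (−0.14) or HM-Wnt replicate 3 (−0.23).

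None of the 14 tested Wnt target genes was past the threshold at 1 week by edgeR (2 at an unadjusted p under 0.05) or by DESeq2. With the block Tcf7 alone fell, against 3.86% of all genes. Of the 14 log2 fold changes 11 were negative, with a median of −0.36. Axin2, the feedback inhibitor that is the usual readout of β-catenin, was at 0.240, 0.768 and 0.573 CPM in MM and 1.51, 0.620 and 1.37 CPM in HM-Wnt (log2 fold change −1.09, edgeR adjusted p = 0.226). Lgr5, the R-spondin receptor, was at 3.71, 5.40 and 2.07 CPM in MM and 12.2, 7.71 and 5.03 CPM in HM-Wnt (−1.15, 0.181). Both overlapped between the media at 1 week. At 2 weeks 6 of the 14 fell (Axin2, Lgr5, Notum, Rnf43, Sp5 and Tcf7) against a background of 4.61%, with a median of −1.37. Axin2 was then at 0.384, 0.179 and 0.159 CPM in MM and 1.57, 0.964 and 1.55 CPM in HM-Wnt (log2 fold change −2.29, edgeR adjusted p = 0.0184), and Lgr5 at 0.205, 0.0895 and 0.477 and 6.01, 5.46 and 7.82 CPM (−4.43, 0.00115). The groups were apart in both genes at that time. The difference between the times did not pass the test for any gene, as described below.

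Of 22 ERK feedback and target genes 2 fell, against 1.22% of all genes, and none rose. Of the 22, 19 had negative log2 fold changes, and the median was −0.60. In 9 the 3 MM libraries all lay below the 3 HM-Wnt libraries, against 12.5% of all genes tested. Egr1, an immediate-early transcription factor, was at 172, 173 and 228 CPM in MM and 590.3, 537 and 380.4 CPM in HM-Wnt (log2 fold change −1.40, standard error 0.30, edgeR adjusted p = 0.0360). Phlda1, a growth-factor-induced gene, was at 31.98, 32.04 and 34.1 CPM in MM and 50.4, 66.2 and 42.7 CPM in HM-Wnt (log2 fold change −0.70, standard error 0.16, edgeR adjusted p = 0.0408). The MM values of Phlda1 were nearly equal, and both genes had groups apart. With the block 5 fell, against 3.86% of all genes, with Dusp5 (−1.98, adjusted p = 0.0810 without and 0.00802 with it), Spred1 (−0.98, 0.0642 and 0.0173) and Etv5 (−1.06, 0.0883 and 0.0210) added. The phosphatase gene Dusp4 rose with the block (1.31, 0.0483 with it), against 5.62% of all genes. Dusp6, the ERK phosphatase, was at 143, 151 and 214 CPM in MM and 249.8, 187 and 218 CPM in HM-Wnt (−0.36, adjusted p = 0.338), so MM replicate 3 reached the HM-Wnt range. The calls of Egr1 and Phlda1 were both lost without MM replicate 1 (edgeR adjusted p 0.143 to 0.149), MM replicate 2 (0.127 to 0.134), HM-Wnt replicate 1 (0.0582 to 0.0668) or HM-Wnt replicate 2 (0.0836 to 0.0907), Phlda1 without MM replicate 3 (0.0509) and Egr1 without HM-Wnt replicate 3 (0.0579). Phlda1 also lost it on log2(TPM + 1).

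Of 21 tested receptors and co-receptors of the families to which the receptors for medium factors belong, 2 rose, against 1.76% of all genes, and none fell. The list goes by family, so a member need not bind a factor in these media. Fgfr3, an FGF receptor, was at 7.01, 6.86 and 6.76 CPM in MM and 1.18, 1.12 and 2.85 CPM in HM-Wnt (log2 fold change 1.96, standard error 0.42, edgeR adjusted p = 0.0354), and Fzd4, a Wnt receptor, at 9.70, 12.5 and 11.4 and 7.75, 4.14 and 5.05 CPM (log2 fold change 0.98, standard error 0.22, edgeR adjusted p = 0.0370). The MM values of Fgfr3 hardly differed from each other. With the block Erbb3, a partner of the EGF receptor (0.69, adjusted p = 0.0466 with it), and Klb, the co-receptor β-Klotho (1.90, 0.00395 with it), also rose, which makes 4 against 5.62% of all genes. Met, the HGF receptor, was at 0.36 and did not pass (adjusted p = 0.117 with the block). None of the 16 tested TGF-β target genes was past the threshold (list median 0.24, 3 at an unadjusted p under 0.05, 2 by DESeq2). With the block Ltbp2 (2.11, adjusted p = 0.0237 with it) and Col4a1 (1.37, 0.00621 with it), both matrix genes, rose, against 5.62% of all genes. Fgfr3 lost its call without MM replicate 1, MM replicate 2, HM-Wnt replicate 1 or HM-Wnt replicate 2 and Fzd4 without any of MM replicates 1, 2 and 3 and HM-Wnt replicates 2 and 3, at edgeR adjusted p up to 0.127.

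Among 21 tested nicotinamide and NAD genes, Aox1 rose, against 1.76% of all genes, and none fell, with 18 positive log2 fold changes and a median of 0.52. Aox1, aldehyde oxidase, which also oxidises N-methylnicotinamide, was at 80.1, 71.5 and 45.3 CPM in MM and 36.6, 24.2 and 32.7 CPM in HM-Wnt (log2 fold change 1.07, standard error 0.23, edgeR adjusted p = 0.0336). With the block 5 rose, against 5.62% of all genes, including Naprt (1.06, adjusted p = 0.0590 without and 0.0265 with it), which makes NAD from nicotinic acid, and Kmo (1.596, 0.102 and 0.00869) and Tdo2 (2.55, 0.0902 and 0.0294), which lead from tryptophan towards NAD. Nnmt, which methylates nicotinamide, was the 1 that fell with the block, against 3.86% of all genes. It was at 37.3, 44.6 and 18.2 CPM in MM and 55.02, 56.4 and 46.4 CPM in HM-Wnt (−0.66, 0.246 and 0.0354). Nampt, the salvage enzyme that uses nicotinamide, had 45.4, 54.9 and 43.9 CPM in MM and 33.2, 37.9 and 29.8 CPM in HM-Wnt (0.52, 0.216), apart but not past the threshold. Without MM replicate 1, MM replicate 2, HM-Wnt replicate 2 or HM-Wnt replicate 3 Aox1 lost its call (edgeR adjusted p up to 0.132).

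**Figure D3:**
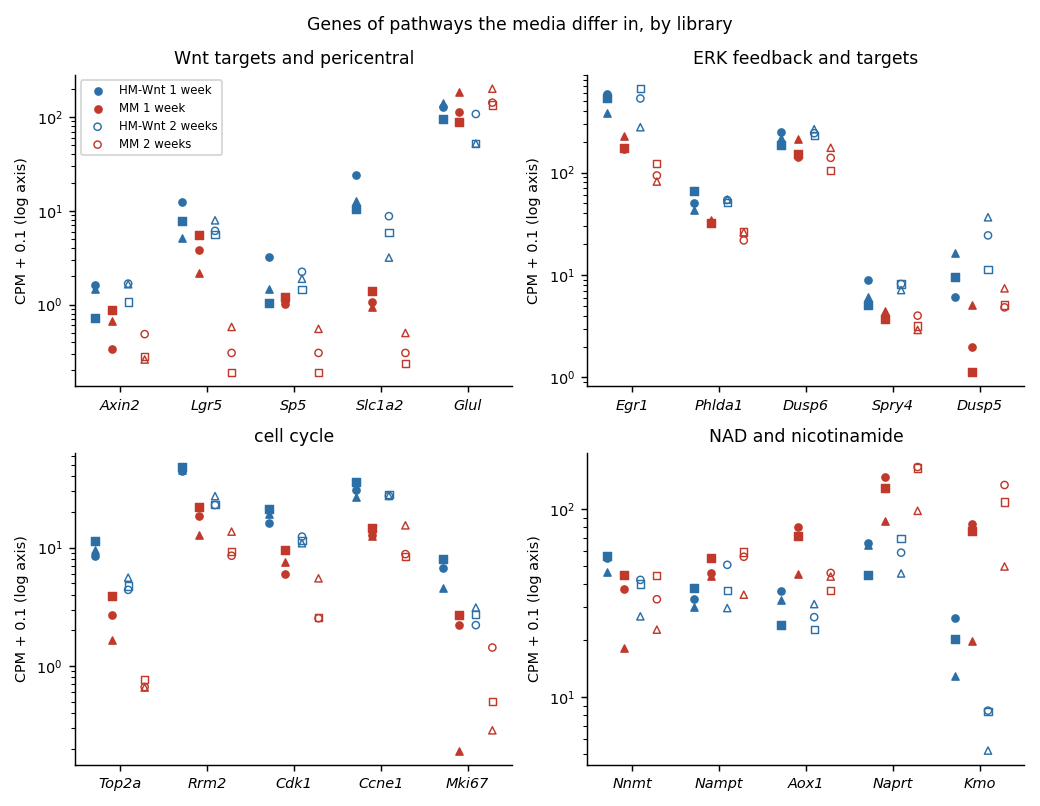
CPM + 0.1 (log axis) of 20 genes in 4 panels, with HM-Wnt in blue and MM in red, 1 week filled and 2 weeks open, and the marker shape giving the replicate number (circle 1, square 2, triangle 3). Axin2 and Lgr5 overlap between the media at 1 week and are apart at 2 weeks, Slc1a2, Egr1 and Top2a are apart at both times, and Glul overlaps at 1 week.

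Of 27 cell cycle genes 6 fell (Top2a, Cdk1, Aurka, Rrm2, Cdc20 and Ccne1) and none rose, against 1.22% of all genes lower. In all, 26 had negative log2 fold changes, the median was −1.28, and in 19 the MM libraries all lay below HM-Wnt, against 12.5% of all genes. Top2a, the topoisomerase of dividing cells, was at 2.62, 3.84 and 1.57 CPM in MM and 8.43, 11.2 and 9.52 CPM in HM-Wnt (log2 fold change −1.85, standard error 0.29, edgeR adjusted p = 0.0120). Rrm2, the ribonucleotide reductase subunit of S phase, was at 18.4, 21.9 and 12.7 CPM in MM and 44.03, 47.99 and 45.6 CPM in HM-Wnt (log2 fold change −1.38, standard error 0.22, edgeR adjusted p = 0.0125), with very even HM-Wnt values. Cyclin E1, encoded by Ccne1 and needed for entry into S phase, was at 12.7, 14.6 and 12.6 CPM in MM and 30.5, 35.9 and 26.6 CPM in HM-Wnt (log2 fold change −1.22, standard error 0.22, edgeR adjusted p = 0.0215). Cdk1, the mitotic kinase, had 5.86, 9.44 and 7.49 CPM in MM and 15.97, 21.1 and 18.98 CPM in HM-Wnt (log2 fold change −1.29, standard error 0.29, edgeR adjusted p = 0.0405). The proliferation marker Mki67 was at 2.12, 2.58 and 0.0924 CPM in MM and 6.57, 7.94 and 4.49 CPM in HM-Wnt, apart but not past the threshold (log2 fold change −1.96, edgeR adjusted p = 0.201), and Pcna, the replication clamp, had MM replicate 3 inside the HM-Wnt range (−0.49, 0.216). E2f8, a repressor of cell cycle genes, was the member with a positive log2 fold change (1.13, 0.344). All 6 calls were lost without MM replicate 1 (edgeR adjusted p 0.0632 to 0.162) and 4 without HM-Wnt replicate 2 (0.0582 to 0.108). Without MM replicate 2, 3 were lost (0.0692 to 0.0886), 3 without HM-Wnt replicate 3 (0.0922 to 0.101), and 2 each without MM replicate 3 (0.0585 to 0.0635) and HM-Wnt replicate 1 (0.0525 to 0.0609). On log2(TPM + 1) 9 of the list were past the threshold, without Aurka, against 342 of all 9439 genes tested on that scale. None of 14 cell cycle inhibitors and p53 targets was past the threshold by edgeR (4 at an unadjusted p under 0.05, 2 by DESeq2). With the block Cdkn2b (−0.75, adjusted p = 0.0102 with it) and Gadd45a (−1.39, 0.0409 with it) fell, against 3.86% of all genes.

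None of 16 secreted plasma protein genes was past the threshold by edgeR (4 at an unadjusted p under 0.05, 4 by DESeq2), and their median was −0.07. On log2(TPM + 1) it was 0.01 and 2 passed, against 342 of all 9439 genes tested on that scale. Hpx, the haem-binding hemopexin, had 25633, 19309 and 6405 CPM in MM and 10711, 5459 and 5815 CPM in HM-Wnt (log2 fold change 1.22, edgeR adjusted p = 0.230). With the block Alb, Trf (transferrin, −1.07, adjusted p = 0.0704 without and 0.0186 with it) and Ahsg (fetuin, −0.93, 0.0813 and 0.0205) fell, against 3.86% of all genes. Trf was at 70714, 74739 and 54286 CPM in MM and 118405, 188700.0 and 112544 CPM in HM-Wnt, with every MM library lower. None of 22 acute phase genes was past the threshold by edgeR (3 at an unadjusted p under 0.05, 2 by DESeq2), with a median of 0.35. The serum amyloid gene Saa1 was at 1907, 1897 and 155 CPM in MM and 117, 208 and 99.6 CPM in HM-Wnt, and its neighbour Saa2 at 1002, 1257 and 20.9 and 27.5, 57.5 and 17.4 CPM, so MM replicates 1 and 2 were high and MM replicate 3 was within the HM-Wnt range. They passed with the block, against 5.62% of all genes higher (adjusted p = 0.0628 and 0.0589 without and 0.0170 and 0.0237 with it), and near-identical copies may share their reads. The protease inhibitor gene Serpina3n fell with the block (−0.91, 0.151 and 0.0205), against 3.86% of all genes. Of 10 tested chemokine and NF-κB genes Tnfaip3, a feedback inhibitor of NF-κB, rose, against 1.76% of all genes. It was at 18.2, 15.9 and 17.6 CPM in MM and 7.59, 6.43 and 5.64 CPM in HM-Wnt (log2 fold change 1.39, standard error 0.21, edgeR adjusted p = 0.0106, and 0.0542 without MM replicate 1). With the block the chemokine Cxcl1 (−0.63, adjusted p = 0.159 without and 0.0407 with it) and the interleukin 1 receptor antagonist Il1rn (−1.09, 0.244 and 0.0402) fell, against 3.86% of all genes. Of the 10 hepatocyte markers Gpx1, a glutathione peroxidase, rose, against 1.76% of all genes (2447, 2054 and 1336 against 916, 912 and 687 CPM, log2 fold change 1.21, standard error 0.28, edgeR adjusted p = 0.0439). Its call held only without MM replicate 3, and the adjusted p reached 0.160 without MM replicate 1. No gene of the interferon (10 tested), NRF2 (9) or YAP (15) lists was past the threshold. At an unadjusted p under 0.05 edgeR gave 0, 1 and 3 and DESeq2 called 0, 1 and 1. With the block Nqo1 of the NRF2 list (1.498, adjusted p = 0.0742 without and 0.0133 with it) and Amotl2 of the YAP list (0.72, 0.157 and 0.0389) rose, against 5.62% of all genes. The list medians were 0.46, 0.06 and 0.23.

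**Figure D4:**
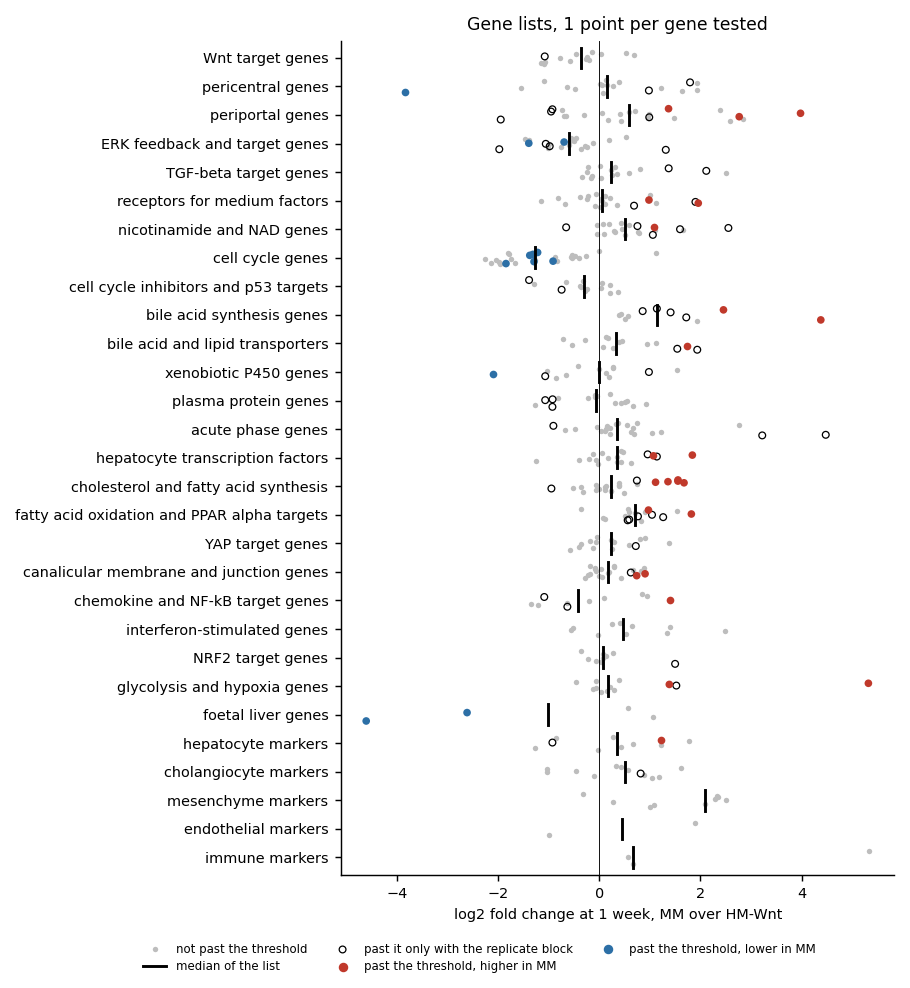
Log2 fold change of MM over HM-Wnt at 1 week for each tested gene of 29 lists, with grey points not past the threshold, open circles past it only with the replicate block, red and blue points past it without the block, and a bar at the list median. Blue points gather in the cell cycle list (6 of 27) and red points in the cholesterol and fatty acid list (5 of 23), while the Wnt and plasma protein lists hold no filled point.

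The medium comparison at 2 weeks, made on separate libraries within the same fit, called 1488 genes (11.5%), 889 higher (6.84%) and 599 lower (4.61%). Both times share the estimate of each gene's spread, so a gene called at 1 week through a low spread is also called more easily at 2 weeks. The overlap of the calls is therefore not an independent test. Whether the 2-week libraries came from the same cultures as the 1-week libraries is not given. Of the 387 genes of 1 week, 276 were past the threshold in the same direction at 2 weeks, which is 71.3% of the 1-week genes and 18.5% of the 2-week genes, and none was past it in the opposite direction. The share was 77.7% (178 of 229) for genes that rose and 62.0% (98 of 158) for genes that fell. Of the 30 ranked genes 25 were past the threshold again, and 20 had a larger absolute log2 fold change at 2 weeks. Over all 387 genes this was not the rule, since 173 had a larger absolute value at 2 weeks. Their median absolute value was 1.13 at 2 weeks and 1.24 at 1 week. Slc2a2 reached 199.6, 128 and 63.05 CPM in MM against 0.916, 1.41 and 1.65 CPM in HM-Wnt at 2 weeks (log2 fold change 6.57, edgeR adjusted p = 0.000958), and Cd36 335, 317 and 219.7 against 7.77, 3.22 and 5.77 CPM (5.69, 0.000319). Both had higher MM values at 2 weeks than at 1 week in every replicate number. At 2 weeks Stc1 had 2.17, 4.32 and 3.68 CPM in MM against 70.7, 59.98 and 87.00 CPM in HM-Wnt (−4.40, 0.000319). Gpc3 had 24.5, 21.5 and 80.4 against 1148, 711 and 1109 CPM (−4.55, 0.00191). These log2 fold changes were larger in size than at 1 week, but the difference between the times did not pass for either gene (edgeR adjusted p = 0.671 for each).

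Fatty acid oxidation gave the most members at 2 weeks, with 13 of 17 higher against 6.84% of all genes and a list median of 1.25. Vnn1 was then at 524, 583 and 557 CPM in MM and 88.7, 104 and 76.6 CPM in HM-Wnt (2.63, edgeR adjusted p = 0.000292). ERK genes had 7 of 22 lower, against 4.61%, with Egr1 at −2.29 (0.00170). Bile acid synthesis had 6 of 11 higher, against 6.84%. The cell cycle list had 8 of 27 lower, against 4.61%, with E2f8 higher (3.13, 0.0190), against 6.84%. Periportal genes had 8 of 23 higher, against 6.84%, and none lower. With the block 13 of the 23 were higher and 3 lower, where 19.6% of all genes were called in either direction. Of 18 tested pericentral genes 2 were higher, against 6.84%, and 3 lower, against 4.61%. Pericentral Glul rose at 2 weeks (142, 135 and 201 CPM in MM against 108, 51.7 and 52.04 CPM in HM-Wnt; 1.18, 0.0466), while Slc1a2 stayed low (0.205, 0.134 and 0.398 against 8.67, 5.78 and 3.07 CPM; −4.34, 0.000852).

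The difference of the medium effect between 1 and 2 weeks was past the threshold for none of the 12989 genes by edgeR (lowest adjusted p 0.392), with 951 at an unadjusted p under 0.05. With the block there were none as well (lowest 0.0539, 1754 unadjusted), and DESeq2 called 46. Of the 387 genes, 7 had the opposite sign at 2 weeks, among them Pcgf6, Arhgef16, 5730480H06Rik, Nucb2, Cyp2s1 and Abcd2, named after the values were seen. Cyp2s1 went from 2.74 at 1 week to −0.83 at 2 weeks, when it was at 2.07, 9.17 and 4.51 CPM in MM and 10.5, 10.7 and 6.90 CPM in HM-Wnt (unadjusted p of the difference 0.000210, adjusted 0.392). Abcd2, a peroxisomal transporter, went from −0.74 to 0.41 (0.000544 and 0.392). Copz2, which fell at 1 week, was at 27.4, 36.5 and 31.3 CPM in MM and 45.7, 24.01 and 37.3 CPM in HM-Wnt at 2 weeks (−0.17, edgeR adjusted p = 0.833).

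**Figure D5:**
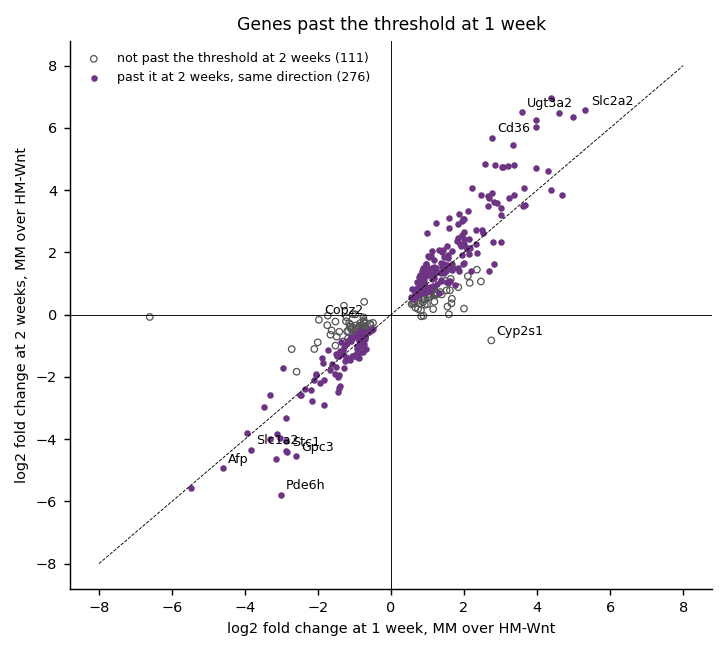
Log2 fold change of MM over HM-Wnt at 2 weeks against that at 1 week for the 387 genes past the threshold at 1 week, with filled points past it in the same direction at 2 weeks (276) and open points not past it (111); the dashed line marks equal values. Most points lie in the lower left and upper right, and Cyp2s1 is the point farthest into the lower right.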

How the data were processed

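Bulk RNA-seq libraries were made by the authors with SMARTseq2 and Nextera and sequenced as paired ends. The submitters' processing notes name STAR and GRCm39, and the study's methods name featureCounts for the counts per gene. The deposited table gives, per gene and library, a whole-number count, used as deposited, and TPM that the authors made from those counts and a gene length. It holds 37 libraries, of which 27 are mapped by their labels; the other 10 were not used in any step. The members and gene lists were chosen with earlier results of these data known.

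Counts of the 12 HepOrg libraries (MM and HM-Wnt, 1 and 2 weeks) were fitted together in R 4.3.3 with edgeR 4.0.16 (TMM, quasi-likelihood test, 1 mean per group, prior count 2; filterByExpr asked for 10 counts and 15 in total). P-values were adjusted by Benjamini-Hochberg over all genes tested, with 0.05 as the threshold. CPM are TMM-normalised. The quasi-likelihood fit shares 1 estimate of the spread over the 12 libraries. Alternatives were RLE size factors, DESeq2 1.42.0, other filters, limma 3.58.1 on log2(TPM + 1) or log2(TPM + 0.1) where 3 libraries reached 1 TPM, fits of the 6 or of all 27 libraries, absolute log2 fold changes above 1, a block for the replicate number, and dropping each library in turn. The fits were tested on simulated data.

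Pairing by replicate number was checked on the data, since the labels leave its meaning open: deviations from the group means correlated above 0.1 in 18 of 18 pairs with the same number (0.127 to 0.503) and in 2 of 36 pairs with different numbers, so the blocked value is given beside each result it changes.

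The genes named are those of the lists, those the study names for HepOrgs in these media, and the 15 with the highest and 15 with the lowest log2 fold change at 1 week among called genes of average log2 CPM 3 or more whose groups do not overlap (predicted Gm genes, Rik clones and unnamed Ensembl genes were passed over). Others are said to be chosen after their values were seen. Levels were not compared between genes. Some genes that the lists and counts include are not reported here by name.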

Additional observations from a re-analysis of the deposited data

How the results depend on the processing

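Of the 83 named genes past the threshold at 1 week, 1304 values were recomputed under the alternatives, of which 827 kept their side of the threshold, 477 kept the direction but were no longer past it, and none reversed. Against 387 genes, RLE size factors gave 414 (386 shared with the 387), a floor of 10 counts per library 447 (343 shared), unfiltered counts 329 (319), log2(TPM + 1) 342 (205), log2(TPM + 0.1) 293 (195) and the block in the 6 libraries alone 466 (222). DESeq2 gave 1420 (791 higher and 629 lower, 386 shared), the replicate block in the 12 libraries 1232, an absolute log2 fold change above 1 253, the 6 libraries alone 30 (with fewer residual degrees of freedom) and all 27 libraries in 1 fit 0 of 14657 genes (637 at an unadjusted p under 0.05); the cause of the last was not tested. Leaving out 1 library gave 42 to 600 genes, 42 without MM replicate 1 and 600 without MM replicate 3 (291 shared). Of the 1-week genes past the threshold again at 2 weeks, DESeq2 gave 831 of 1420 and the block 787 of 1232, against 276 of 387. The difference between times was past the threshold for 46 genes by DESeq2 and none by edgeR with or without the block. Signs turned in 6 named genes that were not past the threshold. Leaving out 1 library gave log2 fold changes of −1.33 to 0.031 for Cyp3a11, −0.030 to 0.18 for Abcc2, −0.27 to 0.29 for Glul, −0.23 to 1.17 for Cyp1a1, −0.16 to 0.23 for Cdh1 and −0.14 to 0.14 for Hnf4a, and Hnf4a was at 0.058 and 0.063 on log2(TPM + 1) and log2(TPM + 0.1). Slc2a2, Apoa5, Csad, Akr1c18, Stc1, Slc1a2, Cyp8b1 and Abcc3 kept their calls in every alternative in which they had a value except the 27-library fit. The log2(TPM + 1) scale ended 18 of 76 named calls, and the fit of the 6 libraries 71 of 83.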

Other observations

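The genes in these paragraphs were chosen after their values were seen. Pairs of values are a log2 fold change and an edgeR adjusted p. They were picked because they were past the threshold, from no fixed list, so they say nothing of how other genes of the same function moved. Bhmt, Bhmt2 and Dmgdh rose in MM at 1 week. Bhmt, the methyltransferase that makes methionine from homocysteine with betaine, was at 29.4, 109.6 and 1.89 CPM in MM replicates 1, 2 and 3 and 1.89, 1.78 and 0.748 CPM in HM-Wnt (log2 fold change 4.97, standard error 1.17, edgeR adjusted p = 0.0445), with MM replicates 1 and 2 high and MM replicate 3 at the top of the HM-Wnt range. Its neighbour Bhmt2 was at 19.4, 29.4 and 9.19 CPM in MM and 3.83, 3.06 and 2.75 CPM in HM-Wnt (log2 fold change 2.57, standard error 0.47, edgeR adjusted p = 0.0221), and Dmgdh, which degrades the dimethylglycine that Bhmt releases, at 5.90, 8.29 and 2.35 and 0.904, 0.232 and 0.344 CPM (log2 fold change 3.34, standard error 0.71, edgeR adjusted p = 0.0340). All 3 rose at 2 weeks as well (6.34, 4.84 and 5.43; edgeR adjusted p = 0.0103, 0.000730 and 0.00231). None of the 3 calls at 1 week held without MM replicate 1, MM replicate 2, HM-Wnt replicate 2 or HM-Wnt replicate 3 (adjusted p 0.0715 to 0.124 for HM-Wnt replicate 2), and Bhmt was above 0.05 on log2(TPM + 1).

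Picked in the same way, 6 single genes with known roles in the primary cilium fell in MM at 1 week, and cilium genes were not tested as a group. They were Ift57 (−2.59, edgeR adjusted p = 0.0369) and Ttc21b (−0.76, 0.0405) of ciliary transport, Cep290 (−0.91, 0.0360), Tctn2 (−1.08, 0.0250) and Tmem237 (−0.97, 0.0249) of the ciliary base, and the small GTPase Arl6 (−0.87, 0.0235). Tctn2 was at 5.14, 5.45 and 4.88 CPM in MM and 10.4, 8.17 and 14.2 CPM in HM-Wnt, and Arl6 at 7.15, 6.68 and 6.45 and 11.3, 14.3 and 11.5 CPM, with no overlap of the groups. At 2 weeks Tctn2, Ttc21b and Tmem237 fell again (−1.32, −1.20 and −0.65; adjusted p = 0.00358, 0.00242 and 0.0451). None of the 6 calls at 1 week held without MM replicate 1, MM replicate 2 or HM-Wnt replicate 3.

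Among genes below the level used for the ranking, Derl3, of protein quality control in the endoplasmic reticulum, was at 3.06, 2.12 and 2.96 CPM in MM and 0.0548, 0 and 0.121 CPM in HM-Wnt (edgeR adjusted p = 0.00996), and Csrp3, a muscle LIM protein, at 2.71, 5.53 and 1.09 and 0.137, 0.0387 and 0.121 CPM (0.0114). Wfdc12, a secreted protease inhibitor, was at 0.203, 0.128 and 0.148 CPM in MM and 4.30, 17.4 and 6.06 CPM in HM-Wnt (0.00744), and all 3 were past the threshold at 2 weeks in the same direction. Cyp2c69, of a multigene family, was at 0.0184, 0 and 0.0739 CPM in MM and 2.82, 19.2 and 1.48 CPM in HM-Wnt at 1 week (0.0221), with HM-Wnt replicate 2 the highest, and at 0.0512, 0.0224 and 0.424 and 0.164, 0.0470 and 0.315 CPM at 2 weeks.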
